A study of Mus musculus with 4 samples.

Results

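Mitochondria carry a small circular genome of their own, with genes for 13 proteins, 2 ribosomal RNAs (rRNAs) and 22 transfer RNAs (tRNAs). The proteins are core subunits of the respiratory chain and of ATP synthase, and they are made inside the organelle by mitochondrial ribosomes, which contain the rRNAs mt-Rnr1 and mt-Rnr2. Cycloheximide stops cytosolic ribosomes but not mitochondrial ones, so a ribosome profiling protocol that relies on it is not designed to hold mitochondrial ribosomes in place. Alveolar type 2 cells, which make lung surfactant, are rich in mitochondria.

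The 37 mitochondrially encoded genes were taken by Ensembl ID from a count table of 53465 mouse gene IDs: the continuous range of IDs of the mitochondrial genome plus ENSMUSG00000065947. All 37 were found, in consecutive lines of the table. The table gives no symbols; the names of the rRNAs and mRNAs used here came with the ID list, and the tRNAs were kept as IDs. The class sizes, 13 mRNAs, 2 rRNAs and 22 tRNAs, equal those of the 37 mitochondrial genes in the RefSeq annotation of GRCm38.p6, but no deposited file checks a single name. The classes are described apart.

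The libraries were sequenced from short RNA fragments left after nuclease digestion of ribosomes in MLE-12 cells, an immortalised mouse lung epithelial line used as a stand-in for alveolar type 2 cells. Control cells (replicates 1 and 2) were compared with cells exposed for 12 h to 5 µM 1-nitropyrene, a nitrated aromatic compound found in diesel exhaust (replicates 2 and 3). All cells were washed with cycloheximide and all libraries went through depletion of rRNA, per the labels' protocols. Separate cultures are not stated for the 2 libraries of either group, so the spread behind every p-value may be technical. Tests of single IDs drew their variance from many IDs together, so their p-values do not measure the spread of 1 ID. The series concerns translation during exposure to the compound. Markers of the cell line could not be checked, since the IDs carry no symbols.

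Total counts ranged from 1136145 to 1357034 per library. Levels are given as CPM (counts relative to library size) after TMM scaling, which estimates the relative size of the libraries from the bulk of the genes. After scaling, 1 count was worth 0.761, 0.844, 0.860 and 0.792 CPM in control replicates 1 and 2 and 1-nitropyrene replicates 2 and 3. A count of 0 allows up to 3 counts, or 2.28, 2.53, 2.58 and 2.38 CPM in the same order. Such limits, and all intervals below, cover counting error only, and PCR copies are not independent molecules. The 2 most abundant IDs of the table, neither of them a member, held 29.7% of counts in both controls, and 32.9% and 33.0% in the 1-nitropyrene libraries, which affects any scaling to the total.

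The mitochondrial genes held few of the counts, and nearly all of these lay on 3 IDs. Members summed to 2368 and 2227 counts in the controls and to 1975 and 2136 in the 1-nitropyrene libraries. As a share of the library this was 0.192% ± 0.00586 (SD, n = 2) in control and 0.158% ± 0.00104 (SD, n = 2) in exposed cells. The rRNAs mt-Rnr1 and mt-Rnr2 and a single tRNA ID, ENSMUSG00000064344, together made up 99.7% of the 8706 mitochondrial counts. The other 34 members shared 27 counts, and 30 of the 37 had no count in any library. Over the whole table, 25.7% of gene IDs had a count.

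**Figure D1:**
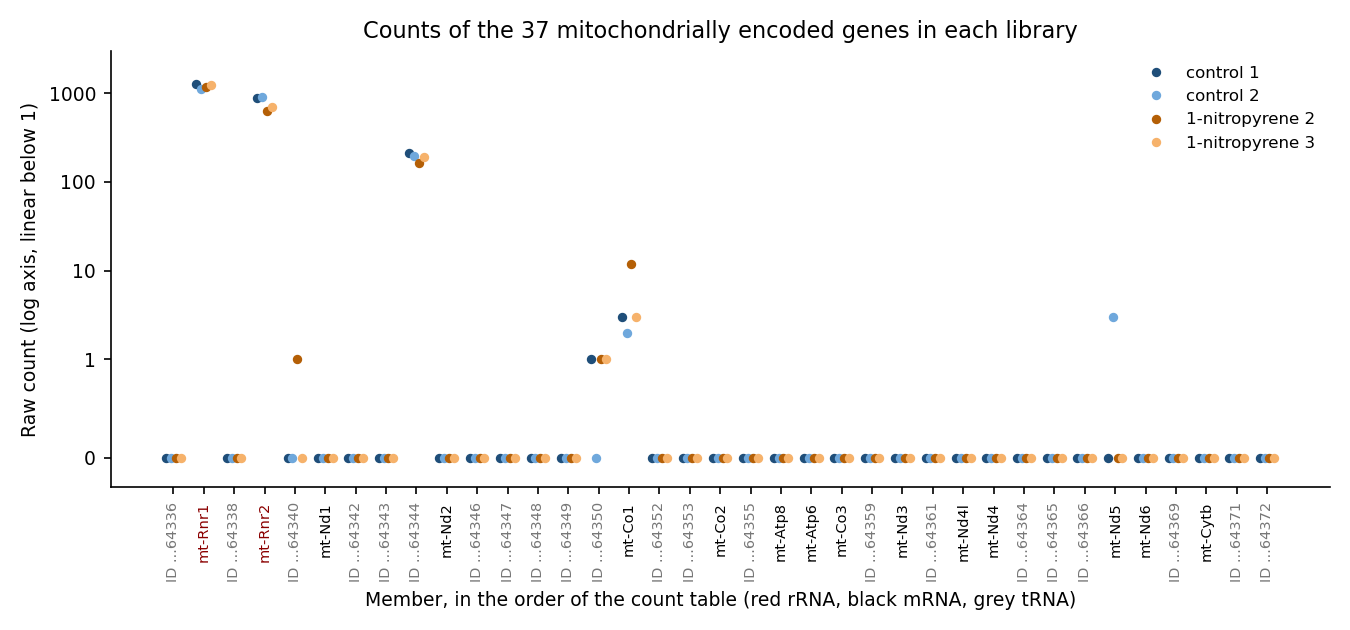
Raw counts (vertical log axis, linear below 1) of the 37 mitochondrially encoded genes, in the order of the count table, with 1 point per library. mt-Rnr1, mt-Rnr2 and ENSMUSG00000064344 stand between 162 and 1268 counts in every library, and no other member exceeds 12.

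The mRNAs were almost without counts in control and exposed cells alike. Of the 13, only mt-Co1 and mt-Nd5 had a count at all. ENSMUSG00000064351, mt-Co1, encodes the catalytic core subunit of cytochrome c oxidase (complex IV) and lies at chrM:5328-6872 in GRCm38.p6. It had 3 and 2 counts in the controls and 12 and 3 in the 1-nitropyrene libraries. Of its 20 counts, 12 thus came from 1-nitropyrene replicate 2 alone, and the other exposed library was level with control replicate 1. The exact 95% Poisson intervals of 12 and 3 counts were 6.20 to 21.0 and 0.619 to 8.77, each for its own library. ENSMUSG00000064367, mt-Nd5, a proton-pumping membrane subunit of NADH dehydrogenase (complex I), had 3 counts in control replicate 2 and 0 in the other 3 libraries.

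The other 11 mRNAs were at 0 in all 4 libraries. For complex I these were mt-Nd1 (ENSMUSG00000064341), mt-Nd2 (ENSMUSG00000064345), mt-Nd3 (ENSMUSG00000064360), mt-Nd4l (ENSMUSG00000065947), mt-Nd4 (ENSMUSG00000064363) and mt-Nd6 (ENSMUSG00000064368), which all build its membrane arm. For complex III it was mt-Cytb (ENSMUSG00000064370), cytochrome b, the only subunit of that complex encoded in mitochondria. For complex IV these were mt-Co2 (ENSMUSG00000064354), which takes up electrons from cytochrome c, and mt-Co3 (ENSMUSG00000064358), a further core subunit. For ATP synthase (complex V) these were mt-Atp6 (ENSMUSG00000064357), which forms the proton path, and mt-Atp8 (ENSMUSG00000064356), a small membrane subunit. The mitochondrially encoded mRNAs of each of these complexes were therefore at or near the floor of the counts, and no comparison between complexes could be made. The complexes themselves were not measured.

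Summed over the 13 mRNAs, the counts were 3 and 5 in the controls and 12 and 3 in the 1-nitropyrene libraries. The summed level was 3.25 ± 1.37 CPM in control and 6.35 ± 5.62 CPM in exposed cells (SD, n = 2 each; exact two-sided permutation p = 0.667). The groups overlapped. The pooled counts, 15 against 8, gave a ratio of 1.93 after scaling, with an exact 95% interval of 0.769 to 5.27. That interval covers counting error only and leaves out the spread between libraries, such as 12 against 3 in the exposed cells. Without 1-nitropyrene replicate 2 the log2 ratio of the summed level turned from 0.97 to -0.44. No mRNA had enough counts to be tested across all genes. When every ID with a count was tested, edgeR's quasi-likelihood test gave an adjusted p = 0.296 for mt-Co1 and an adjusted p = 0.528 for mt-Nd5. Without adjustment, 0 of the 2 lay under 0.05 with edgeR or with the DESeq2 Wald test, which gave neither an adjusted p.

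The mRNA counts were set against the rest of the table and against the mitochondrial rRNAs. The 13 mRNAs together had 23 counts over the 4 libraries, and 8701 single IDs, 63.3% of those with a count, had more. The mean over libraries of the summed mRNAs was 5.75 counts; the 7719 IDs that passed the filter for testing, which sets a minimum count, had a median mean count of 38.75. Per annotated base, with 2537 bases of rRNA and 11338 of mRNA, the rRNAs held 848 and 799 counts per kb in the controls and 709 and 765 in the 1-nitropyrene libraries. The mRNAs held 0.265 and 0.441 counts per kb in the controls and 1.06 and 0.265 in the 1-nitropyrene libraries. The rRNAs were thus 3206-fold (exact 95% interval 1095 to 15557) and 1813-fold (775 to 5589) denser than the mRNAs in the controls. In the 1-nitropyrene libraries they were 670.0-fold (383 to 1299) and 2890.0-fold (987 to 14026) denser. These folds compare unlike things: fragments of structural rRNA, in libraries put through rRNA depletion, and fragments counted on messages. For single mRNAs at 0, taking 3 counts per library as the floor, mt-Rnr1 was at least 542-fold denser than mt-Nd4, at 1378 bases the longest of the 11, and at least 80.2-fold denser than mt-Atp8, at 204 bases the shortest.

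Neighbouring mitochondrial genes overlap in places, and reads in an overlap may not be assigned. In the RefSeq annotation mt-Atp8 shared 21.1% of its bases with mt-Atp6, the largest share among the 13, and mt-Atp6 shared 6.46% with its neighbours. The shares were 0.209% for mt-Nd1, 0.193% for mt-Nd2 and 0% for mt-Cytb and mt-Co2. Nuclear copies of mitochondrial sequence can also take or void reads. A search of the RefSeq synonyms for names of the mitochondrial rRNAs and mRNAs found 1 pseudogene, Gm10925 at chr1:24613971-24614651. It is 681 bases long like mt-Atp6 itself. The search was by name and not by sequence, so nuclear copies without such a synonym would be missed. The search returned none of the mitochondrial genes themselves either, so its result is not a count of the nuclear copies. How the authors treated reads that match several places, and what lengths of fragment they kept, is not given in the sources used here, and the part of these or of overlapping genes in the low mRNA counts was not tested.

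The rRNAs were the best covered members, and they differed in how their counts compared between the groups. mt-Rnr1 (ENSMUSG00000064337), the rRNA of the small mitochondrial subunit, lies at chrM:70-1024. Its counts were 1268 and 1126 in the controls and 1176 and 1236 in the 1-nitropyrene libraries, or 964 and 949.9 CPM against 1012 and 979 CPM. Both exposed libraries lay slightly above both controls. The means were 957 ± 10.2 and 995 ± 23.3 CPM (SD, n = 2 each), a difference that did not pass the test (edgeR quasi-likelihood log2 fold change 0.06 ± 0.053 SE, adjusted p = 0.511), and scaling to total counts turned its sign, to -0.11.

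mt-Rnr2 (ENSMUSG00000064339), the rRNA of the large subunit, which also holds the site of peptide bond formation, lies at chrM:1094-2675. Its counts were 884 and 902 in the controls and 623 and 704 in the 1-nitropyrene libraries, or 672 and 761 CPM against 536 and 558 CPM. Both exposed libraries lay below both controls, and the controls were further from each other than the exposed libraries were. mt-Rnr2 fell from 717 ± 62.7 to 547 ± 15.2 CPM (SD, n = 2 each), to 0.764 of its control level (edgeR quasi-likelihood log2 fold change -0.39 ± 0.065 SE, adjusted p = 1.40e-07). The edgeR p rests on a variance estimated over many IDs together and does not measure the spread of mt-Rnr2 itself. The DESeq2 Wald test gave -0.38 ± 0.11 SE and an adjusted p = 0.00888. Leaving out each library in turn gave log2 fold changes from -0.48 to -0.29; the highest adjusted p over all 13 alternatives was 0.0189, reached without 1-nitropyrene replicate 2. Since these RNAs are structural parts of the ribosome, their counts are fragments of rRNA and not footprints on a message.

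**Figure D2:**
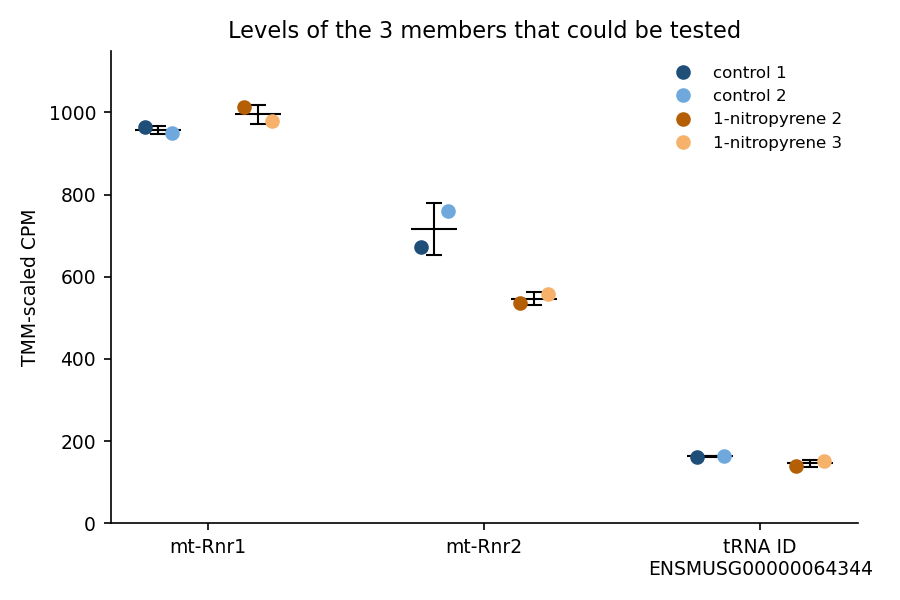
TMM-scaled CPM (linear axis from 0) of mt-Rnr1, mt-Rnr2 and the tRNA ID ENSMUSG00000064344; points are libraries, and bars give the mean and SD of each group (n = 2). For mt-Rnr2 both exposed libraries (536 and 558 CPM) lie below the controls (672 and 761 CPM), whereas for mt-Rnr1 all 4 lie between 949.9 and 1012 CPM.

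The ratio of the rRNAs within a library needs no scaling between libraries. Counts of mt-Rnr2 over mt-Rnr1 were 0.697 (exact 95% binomial interval 0.639 to 0.760) and 0.801 (0.733 to 0.875) in the controls. They were 0.530 (0.480 to 0.584) and 0.570 (0.518 to 0.625) in the 1-nitropyrene libraries. The intervals of libraries within a group overlapped, and those of libraries from different groups did not, with closest ends at 0.639 and 0.625. They cover counting error only, so they do not measure the spread between libraries of a group. The mean ratio was 0.749 ± 0.0735 in control and 0.550 ± 0.0282 in 1-nitropyrene cells (SD, n = 2 each), 0.734 of the control value. An exact two-sided permutation test gave p = 0.333, the smallest that 2 libraries against 2 allow; this test therefore cannot pass a threshold of 0.05 here. Per base, mt-Rnr2 was the less dense of the pair in every library, with a density relative to mt-Rnr1 of 0.421 and 0.484 in the controls and 0.320 and 0.344 in the 1-nitropyrene libraries. In CPM per kb, mt-Rnr1 stood at 1002 ± 10.7 in control and 1042 ± 24.4 in 1-nitropyrene cells, and mt-Rnr2 at 453 ± 39.6 and 346 ± 9.63 (SD, n = 2 each). Whether the depletion of rRNA acted on these RNAs, and equally in all libraries, is not given in the sources used here and was not tested.

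**Figure D3:**
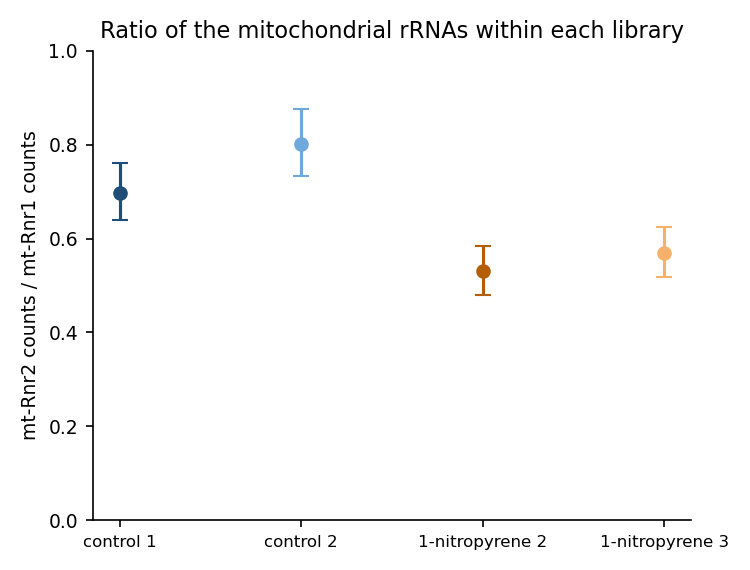
Counts of mt-Rnr2 divided by counts of mt-Rnr1 in each library (linear axis from 0), with exact 95% binomial intervals for counting error. The controls stand at 0.697 and 0.801 and the 1-nitropyrene libraries at 0.530 and 0.570.

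The summed rRNA level was 1637 and 1711 CPM in the controls and 1548 and 1537 CPM in the 1-nitropyrene libraries. The means were 1674 ± 52.4 and 1542 ± 8.06 CPM (SD, n = 2 each), 0.921 of the control level, with groups that did not overlap (exact two-sided permutation p = 0.333). As a share of all counts the rRNAs took 0.175% ± 0.00558 and 0.144% ± 0.00124. Within the mitochondrial counts, mt-Rnr1 took 53.5% and 50.6% in the controls and 59.5% and 57.9% in the 1-nitropyrene libraries. The share of mt-Rnr2 was 37.3% and 40.5% in the controls and 31.5% and 33.0% in the 1-nitropyrene libraries.

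The tRNAs, which carry amino acids to the mitochondrial ribosome, were represented by a single ID. ENSMUSG00000064344 had 212 and 194 counts in the controls and 162 and 192 in the 1-nitropyrene libraries, or 161 and 164 CPM against 139 and 152 CPM. Both exposed libraries lay below the controls, 1-nitropyrene replicate 3 by the smaller margin. The means were 162 ± 1.71 and 146 ± 8.97 CPM (SD, n = 2 each), a difference that did not pass the test (edgeR quasi-likelihood log2 fold change -0.15 ± 0.13 SE, adjusted p = 0.461; lowest adjusted p over the alternatives 0.0772). No table used here ties the ID itself to an amino acid, so it is not named. In the count table it stands directly before mt-Nd2, the place of the tRNA gene TrnM in the RefSeq order. That match is by order alone and was not checked. Its ratio to mt-Rnr1 was 0.167 and 0.172 in the controls and 0.138 and 0.155 in the 1-nitropyrene libraries. Its ratio to mt-Rnr2 was 0.240 and 0.215 in the controls and 0.260 and 0.273 in the 1-nitropyrene libraries. Each of the 3 ratios among these members gave an exact permutation p = 0.333 (adjusted p = 0.333).

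Of the other 21 tRNA IDs, ENSMUSG00000064350 had 1 count in each of 3 libraries and 0 in control replicate 2, ENSMUSG00000064340 had 1 count in 1 library, and 19 were at 0 throughout. ENSMUSG00000064344 therefore held 760 of the 764 tRNA counts. The RefSeq tRNAs are between 59 and 75 bases long. Why a single ID held these counts was not tested. The summed tRNA level was 163 ± 1.18 CPM in control and 147 ± 8.31 CPM in 1-nitropyrene cells (SD, n = 2 each; exact permutation p = 0.333).

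Of the 37 members, 3 passed the filter for testing; of these mt-Rnr2 was called lower, 0 were called higher and 2 were not called. Over all 7719 IDs tested, edgeR called 17.3% (adjusted p under 0.05), 9.68% higher and 7.58% lower. All 3 members lay among the 1930 tested IDs with the highest mean CPM, of which 11.7% were called lower. By mean CPM, mt-Rnr1 ranked 69, mt-Rnr2 149 and ENSMUSG00000064344 948. The groups did not overlap for any of the 3, as for 57.3% of all tested IDs, which sets nothing apart. A lower log2 fold change than that of mt-Rnr2 was found for 23.4% of tested IDs, than that of ENSMUSG00000064344 for 38.0% and than that of mt-Rnr1 for 55.7%. The fall of mt-Rnr2 was thus of a size found for many other IDs, most of them with fewer counts. The median mean count was 38.75 over all tested IDs, against 778 for mt-Rnr2. How many IDs of a like level fell as far was not tested.

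**Figure D4:**
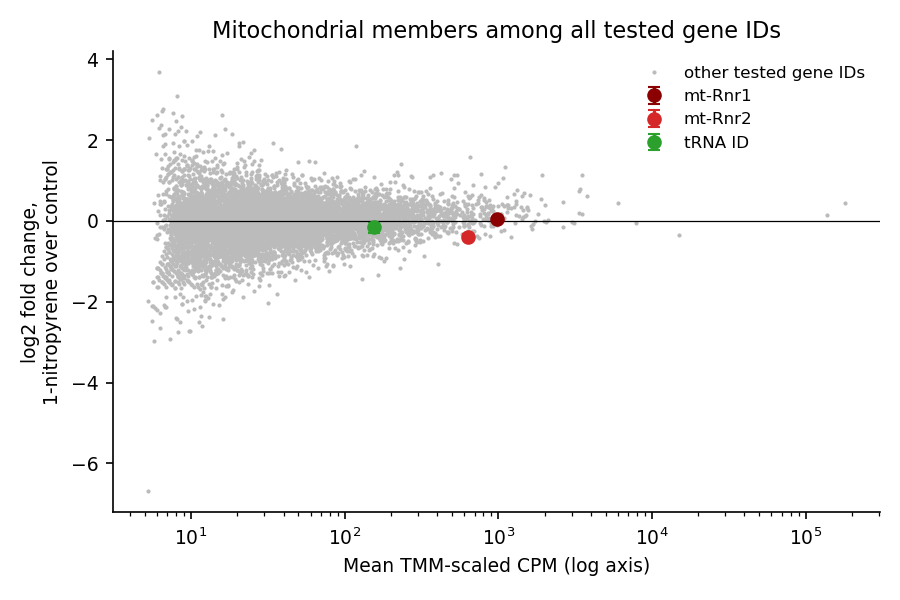
log2 fold change of 1-nitropyrene over control (vertical) against mean TMM-scaled CPM (horizontal log axis) for the 7719 tested gene IDs, in grey, with the 3 tested mitochondrial members in colour and bars of 1 SE. mt-Rnr2 stands at -0.39, the tRNA ID at -0.15 and mt-Rnr1 at 0.06, all inside the cloud of other IDs.

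The sign of mt-Rnr1 turned with the scaling. With total counts the median over tested IDs of the log2 fold change moved from -0.0076 to -0.17, and the calls over all IDs from 747 higher and 585 lower to 410 and 1098. A change of scaling shifts all IDs nearly alike, so the distance of a member from that median is fixed by construction when only the scaling changes. As reported, mt-Rnr1 stood 0.064 above it; leaving out each library gave 0.044 to 0.10. Relative to the same median, leaving out each library put mt-Rnr2 between -0.48 and -0.30 and ENSMUSG00000064344 between -0.20 and -0.063. mt-Rnr2 stayed past the threshold and lower in each of its 13 alternatives, the DESeq2 Wald test among them.

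**Figure D5:**
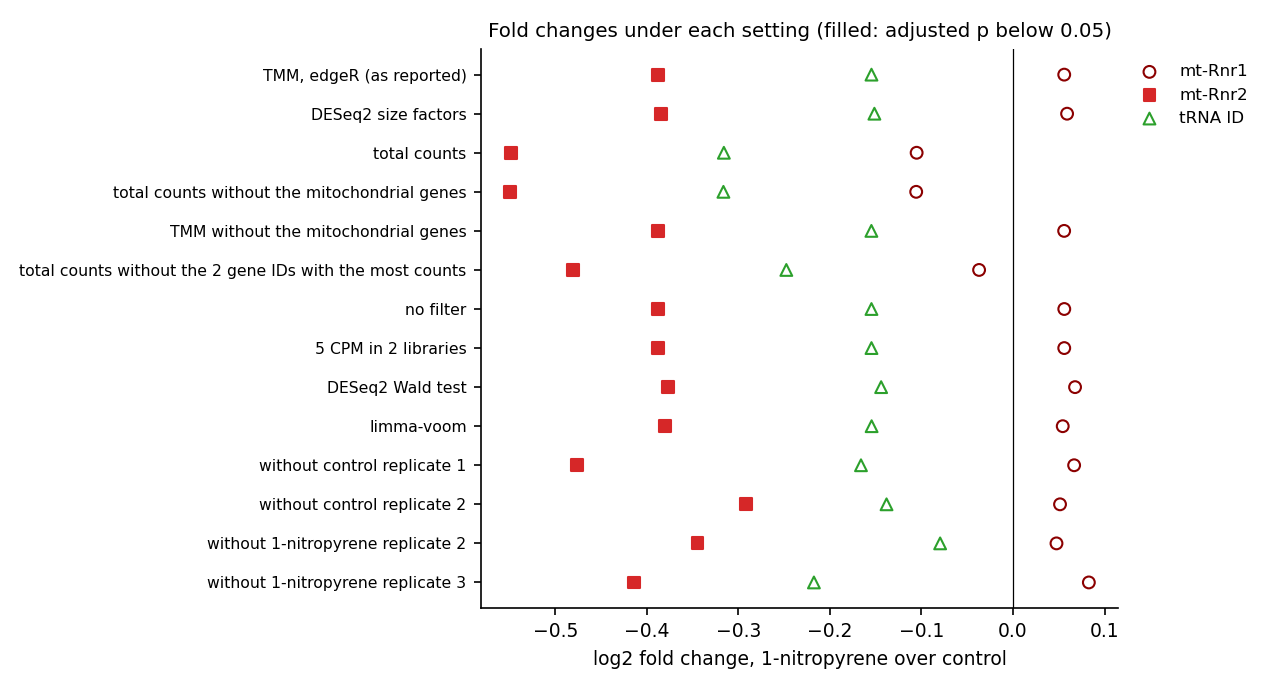
log2 fold changes of the 3 tested members (horizontal) under the reported setting and 13 alternatives (rows), filled where the adjusted p was below 0.05. mt-Rnr2 is filled and lies between -0.55 and -0.29 in all rows; mt-Rnr1 crosses 0 in the 3 rows with total counts.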

How the data were processed

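Ribosome profiling libraries of MLE-12 cells (2 control, 2 with 1-nitropyrene) were analysed from 1 table. Its values are whole-number counts per Ensembl gene ID, deposited without normalization. The submitters' processing notes list DESeq2, featureCounts, HISAT2, Bowtie and cutadapt, with mm10 as the build. Versions, settings, strand and the handling of multiply matching reads: not given in the sources used here. The table has 0 other sample columns.

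IDs were filtered with filterByExpr (minimum count 10, total 15), which left 7719, scaled with TMM, and tested with edgeR 4.0.16 (quasi-likelihood F test, in R 4.3.3) over the whole table with no covariate. Calls have a Benjamini-Hochberg adjusted p under 0.05. The SE is the absolute log2 fold change over the square root of F. Alternatives used DESeq2 1.42.0 and limma 3.58.1. The edgeR script was run on simulated counts, drawn with the same dispersion for every ID. That run checked the code and does not measure how many of the calls here are false.

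Members, classes and lists were chosen with earlier results of these data known. All mRNAs and rRNAs were to be named, and tRNAs only if tested; the 2 tRNA IDs with 1 to 3 counts were named after their values were seen. Gene positions and lengths are RefSeq's (GRCm38.p6, the assembly that mm10 names), matched by symbol. It gives no Ensembl ID, so the planned lists of nuclear-encoded subunits, mitochondrial ribosome proteins and cell type markers, and the ratio of mitochondrial to nuclear subunits, are not analysed here.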

Additional observations from a re-analysis of the deposited data

How the results depend on the processing

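mt-Rnr2 kept its direction and call in 13 alternatives (log2 fold change -0.55 to -0.29), and ENSMUSG00000064344 stayed lower and uncalled (-0.32 to -0.080). mt-Rnr1 stayed uncalled but changed sign with total counts (-0.11), total counts without the mitochondrial genes (-0.11) and total counts without the 2 most abundant IDs (-0.037), a setting chosen after seeing the data. In those settings the log2 ratio of the summed rRNA level moved from -0.12 to -0.28, -0.28 and -0.21, and that of the summed tRNA level from -0.15 to -0.31, -0.31 and -0.24. The log2 ratio of mt-Rnr2 over mt-Rnr1 between groups was -0.45, and -0.54 to -0.34 when leaving out each library. The DESeq2 Wald test called 315 IDs against 1332, and fits without 1 library, where a lone library was taken to vary as the remaining pair does, 572 to 834; the cause was not tested. ENSMUSG00000064344 was called in 0 alternatives. The mRNAs and the other tRNA IDs were below the filters, so that most alternatives could not call them; without a filter, edgeR called 0 of the 4 that had a count. The mRNAs had at most 12 counts a library, which leaves wide counting intervals. No paired analysis was possible because just 1 replicate number, 2, occurs in both groups. The shares of single mRNAs within their class were not run, since their sum was at most 12 counts, and the nuclear lists and ratios were not run.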
